A study of Mus musculus with 4 samples.

Results

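Bone morphogenetic protein (BMP) signalling was followed through 9 genes in mouse cardiac fibroblasts during reprogramming towards cardiomyocytes. They are the ligand genes Bmp2 and Bmp4, the receptor genes Bmpr1a and Bmpr2, the secreted antagonist gremlin 1 (Grem1), the intracellular inhibitor Smad6, and the target genes Id1, Id2 and Id3. They were taken by their symbols from a table of 56691 genes; each of the 9 symbols matched 1 row. The cells were wild-type primary fibroblasts from hearts of mice at postnatal days 1 to 3. All 4 libraries came from cells given Mef2c, Gata4 and Tbx5 (MGT), the factors that drive the conversion, and were collected at day 7. MGT+shNT cells also carried a non-targeting short hairpin RNA and MGT+shScd1 cells a hairpin against Scd1, which encodes stearoyl-CoA desaturase, an enzyme that makes monounsaturated fatty acids, with 2 libraries in each group, called the control and the knockdown libraries below. No library without MGT is analysed here, so both groups are cultures in conversion and neither is an untreated fibroblast. The series asks which molecular changes accompany the effect of Scd1 knockdown on reprogramming.

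BMPs are secreted dimers that bind a complex of type I receptors, such as that encoded by Bmpr1a, and type II receptors, such as that encoded by Bmpr2. The activated type I receptor phosphorylates SMAD1, SMAD5 and SMAD9, which join SMAD4 and enter the nucleus. Among their best known targets are the Id genes, whose products have a helix-loop-helix but no DNA-binding region and so hold E proteins away from DNA, and Smad6, whose product inhibits the pathway in return. Gremlin 1 binds BMP2 and BMP4 outside the cell. In the embryo BMP2 and BMP4 help to specify heart muscle and to shape the outflow tract and valves.

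The 5 promoter windows below belong to Bmp4 and Grem1, which had the largest falls among the 9 genes, and to the 3 target genes among the 9 that were called lower. Each window holds 300 bases, 250 before and 50 after the start site that RefSeq gives, on GRCm38.p6, and is written 5′ to 3′ on the gene's strand. Of the 9 genes, 7 had a window in the table used, and Id1 and Bmp2 had none. Capitals mark matches to GGCGCC, a GC-rich element that SMAD1 and SMAD5 can bind, to CAGAC, the SMAD box, on either strand (GTCTG on the other), and to GTCTAGAC, a palindrome that SMAD proteins bind, which was added after the windows had been read and which holds no full match to either of the others.
Bmp4, chr14:46390620-46390919, minus strand: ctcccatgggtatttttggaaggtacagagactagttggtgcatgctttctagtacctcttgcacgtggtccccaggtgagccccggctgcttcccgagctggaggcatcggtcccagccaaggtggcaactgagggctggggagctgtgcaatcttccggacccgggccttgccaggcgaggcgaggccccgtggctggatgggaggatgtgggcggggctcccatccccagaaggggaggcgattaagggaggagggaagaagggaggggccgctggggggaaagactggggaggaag
Grem1, chr2:113758599-113758898, minus strand: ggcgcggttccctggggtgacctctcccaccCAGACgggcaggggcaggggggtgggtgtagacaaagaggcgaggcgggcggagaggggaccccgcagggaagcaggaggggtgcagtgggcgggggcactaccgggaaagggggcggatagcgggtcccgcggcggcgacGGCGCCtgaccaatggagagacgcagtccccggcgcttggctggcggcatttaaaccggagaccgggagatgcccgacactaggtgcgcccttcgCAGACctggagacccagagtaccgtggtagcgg
Id2, chr12:25096043-25096342, minus strand: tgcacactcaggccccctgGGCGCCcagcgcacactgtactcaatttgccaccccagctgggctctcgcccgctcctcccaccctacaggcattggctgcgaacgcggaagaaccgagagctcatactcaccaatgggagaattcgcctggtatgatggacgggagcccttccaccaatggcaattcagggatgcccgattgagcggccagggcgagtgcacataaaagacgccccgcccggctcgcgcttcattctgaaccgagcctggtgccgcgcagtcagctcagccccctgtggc
Id3, chr4:136143572-136143871, plus strand: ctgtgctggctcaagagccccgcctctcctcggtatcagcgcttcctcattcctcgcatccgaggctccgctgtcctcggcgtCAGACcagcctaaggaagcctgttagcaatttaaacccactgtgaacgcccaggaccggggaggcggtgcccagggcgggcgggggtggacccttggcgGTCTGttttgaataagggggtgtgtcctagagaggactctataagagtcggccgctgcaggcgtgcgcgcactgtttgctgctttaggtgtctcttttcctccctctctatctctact
Smad6, chr9:64022010-64022309, minus strand: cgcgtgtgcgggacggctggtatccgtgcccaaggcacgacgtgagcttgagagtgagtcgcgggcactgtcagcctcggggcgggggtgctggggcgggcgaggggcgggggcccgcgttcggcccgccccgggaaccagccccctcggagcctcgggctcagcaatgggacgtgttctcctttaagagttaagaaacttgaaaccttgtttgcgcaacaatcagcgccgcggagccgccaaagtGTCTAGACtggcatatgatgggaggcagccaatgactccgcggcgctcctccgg

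Counted from the start site, Grem1 held GGCGCC at -78 and CAGAC at -219 and 17. Id2 held GGCGCC at -231, and Id3 held CAGAC at -167 and, on the other strand, at -68. Smad6 held GTCTAGAC at -4 and neither of the other motifs, and the Bmp4 window held none of the 3. GGCGCC was also present at -198 in Bmpr1a and at -105 in Bmpr2. Of all 32851 windows of the same length, 11.9% held GGCGCC, 49.6% held CAGAC, 5.24% held both and 0.213% held GTCTAGAC. These matches describe the letters of the windows; binding was not measured, nor was the start site used in these cells.

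Scd1, the hairpin's target, had a CPM (read count scaled to a common library size) of 84.2 and 63.4 in the control libraries and 6.62 and 8.03 in the knockdown libraries (log2 fold change -3.34, SE 0.14, adjusted p = 4.31e-09). Total counts ranged from 15135227 to 20894972 per library. MGT+shNT replicate 2 stood apart from the others in its ribosomal RNA: the gene Rn18s-rs5 took 3.32% of its counts, against 0.129% to 0.199% in the other 3 libraries. Markers of fibroblasts, the labelled cell type, were present in every library (summed level of 10 markers, 1656 to 2217 FPKM, which scales counts to gene length and library total), as were those of cardiomyocytes (9 markers, 1813 to 2226 FPKM). Of the fibroblast markers 7 fell, 1 rose and 2 did not pass, and of the cardiomyocyte markers 3 fell, 3 rose and 3 did not pass. Tcf21, which fell, is on both the fibroblast list and the epicardial list below and counts in each. It had 127 and 118 FPKM in the control and 88.9 and 83.2 FPKM in the knockdown libraries. A macrophage list, a cell type that heart preparations can hold, was mostly lower in the knockdown libraries. Its 12 markers summed to 595 and 530 FPKM in the control libraries and to 159 and 150 in the knockdown libraries. Lyz2 alone gave 426 and 396 FPKM of the control sums and 98.8 and 92.3 FPKM of the knockdown sums. Of the 12, 9 fell, while Csf1r (log2 fold change -0.76), C1qa (0.21) and Aif1 (0.005) did not pass. The 12 endothelial markers summed to between 4.51 and 6.06 FPKM, with no single marker above 2.17 FPKM, and 2 of the 10 tested fell. Of 10 epicardial and mesothelial markers 5 fell and 2 rose (sums 267 to 322 FPKM), and of 9 smooth muscle and pericyte markers 1 fell and 2 rose (1296 to 1736 FPKM). The Schwann and neural list (0.91 to 1.34 FPKM) had 2 of 4 markers tested and 0 called by edgeR, also at an unadjusted p below 0.05. Called shares were 80% of tested fibroblast markers, 66.7% of cardiomyocyte, 75% of macrophage and 20% of endothelial markers. They were 70% for the epicardial and 33.3% for the smooth muscle list, beside 29.3% of all tested genes. In such bulk samples fewer cells of a type and less RNA per cell cannot be told apart, and the part of cell composition in the results below was not tested.

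Of the 9 genes, 6 were lower in the knockdown cells: Bmp4, Grem1, Bmpr2, Id2, Smad6 and Id3. The other 3, Bmp2, Bmpr1a and Id1, did not pass the test, and 0 were higher, by edgeR, DESeq2 or limma-voom alike, or by edgeR at an unadjusted p below 0.05. Calls are edgeR's, with an adjusted p below 0.05, and the words rose and fell refer to called genes. The whole table set a high background: of 16234 genes tested, 29.3% were called, 16.3% lower and 13.1% higher. Of these calls 44.6% were higher, against 58.6% with library totals without Rn18s-rs5 and Lars2 and no TMM factors and 63.3% and 63.0% on the log2(FPKM + 1) and log2(FPKM + 0.1) scales. DESeq2 called 4 of the 9 genes, with 20% of all genes called, and limma-voom 5, with 29.3%. The median log2 fold change of the 9 genes was -0.31, against 9.44e-05 over all genes tested. The falls ran from 50.8% for Bmp4 to 16.1% for Smad6. Left out in turn, the libraries changed the count: 3 genes were called without MGT+shNT replicate 2, 3 without MGT+shScd1 replicate 2, 4 without MGT+shScd1 replicate 1 and 6 without MGT+shNT replicate 1. The called share of all genes was 28.2% and 31% without MGT+shNT replicates 1 and 2, and 12.9% and 15.3% without MGT+shScd1 replicates 1 and 2. The CPM of the groups did not overlap for 7 of the 9 genes, and 64.3% of all tested genes showed the same.

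**Figure D1:**
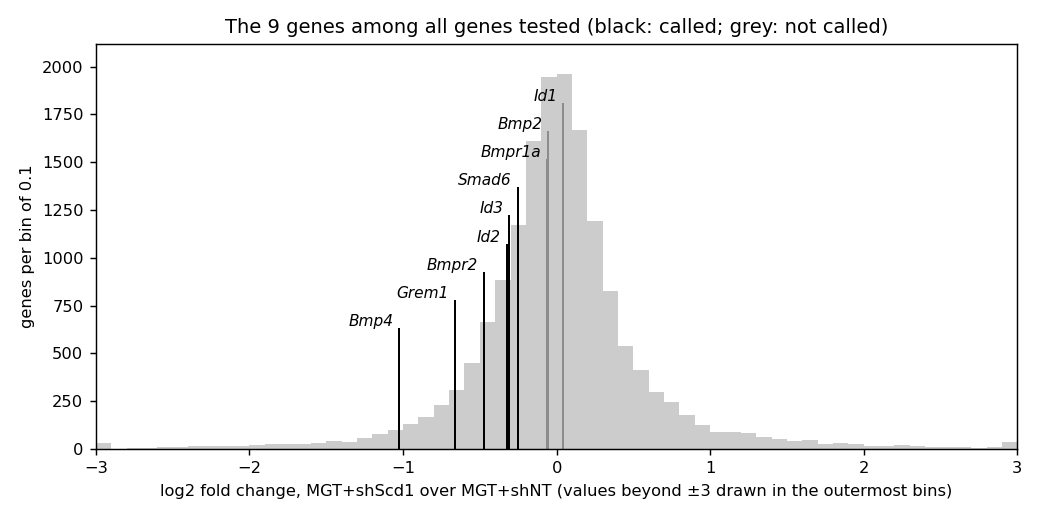
Histogram of the log2 fold change (MGT+shScd1 over MGT+shNT) of all 16234 genes tested, in bins of 0.1, with a vertical line for each of the 9 genes. Bmp4 (-1.02) and Grem1 (-0.66) lie in the left flank, and Id1, Bmp2 and Bmpr1a lie near 0; line heights only separate the names.

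The ligand genes differed from each other. Bmp4 (ENSMUSG00000021835, minus strand of chromosome 14, 46383520 to 46390669; positions are on GRCm38) stood at 47.7 and 39.96 CPM in the control libraries and 23.0 and 20.4 CPM in the knockdown libraries. Both knockdown libraries were low, and the lower control library was still far above them. Its mean fell from 43.8 ± 5.49 to 21.7 ± 1.84 CPM (± is the SD of n = 2 libraries throughout), which is a log2 difference of -1.02 (SE 0.10, 95% interval -1.25 to -0.80, adjusted p = 9.7e-06 by edgeR's quasi-likelihood test). Of all genes tested, 3.31% had a lower log2 fold change. The Bmp4 call held in all 12 alternatives tried, which covered other tests, scalings, filters and units and each library left out, with log2 fold changes from -1.14 to -0.85.

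Bmp2 (ENSMUSG00000027358, plus strand of chromosome 2, 133552159 to 133562885), whose product is closely related to that of Bmp4, was scarce, with 70 and 48 counts in the control libraries and 65 and 62 in the knockdown libraries. These equal 3.39 and 3.35 CPM against 3.29 and 3.21 CPM, so all 4 libraries were nearly level. The log2 fold change of -0.05 (SE 0.24) did not pass (adjusted p = 0.899), and its 95% interval from -0.58 to 0.47 leaves room for a change of moderate size in either direction. Per length, Bmp4 stood above Bmp2 by a factor of 22.3 and 18.9 in the control libraries and 11.01 and 10.1 in the knockdown libraries (ratio of FPKM). The ratio was lower in both knockdown libraries, while Bmp2 itself was nearly level.

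The antagonist gene was lower as well. Grem1 (ENSMUSG00000074934, minus strand of chromosome 2, 113746164 to 113758646) had 18.5 and 19.6 CPM in the control libraries and 12.6 and 11.4 CPM in the knockdown libraries. Its replicates lay close together and the groups did not overlap. The mean fell from 19.0 ± 0.722 to 12 ± 0.843 CPM, a log2 difference of -0.66 (SE 0.12, 95% interval -0.92 to -0.41, adjusted p = 0.000916), and the call held in all 12 alternatives (log2 fold change -0.74 to -0.45). Set against the ligands in FPKM, Grem1 amounted to 0.202 and 0.252 of the sum of Bmp2 and Bmp4 in the control libraries and to 0.272 and 0.276 in the knockdown libraries. The ratio did not overlap between the groups, but its means lay no further apart than the control libraries did from each other.

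**Figure D2:**
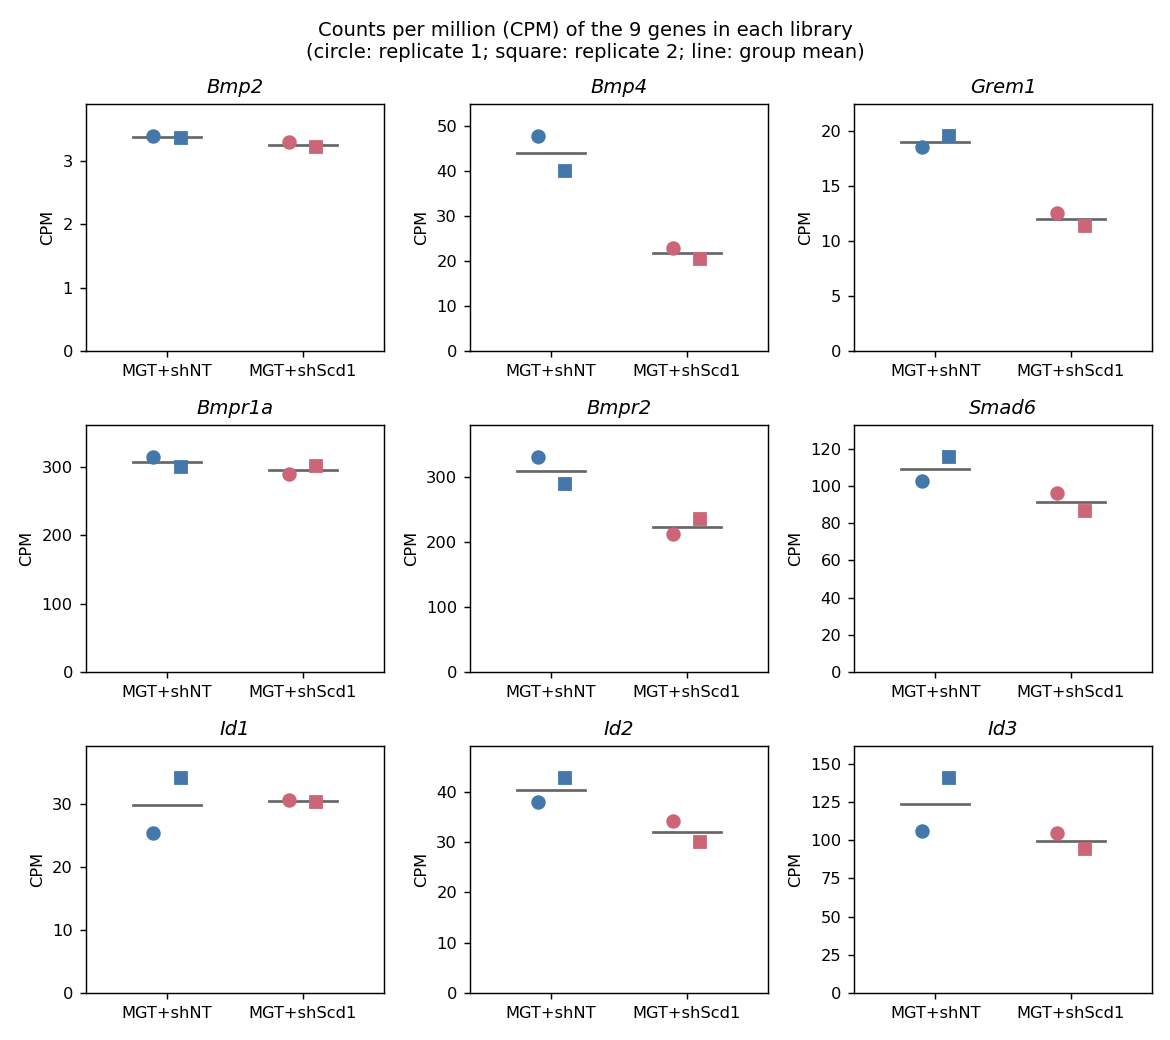
CPM of each of the 9 genes in the 4 libraries, each panel with its own axis from 0. Circles are replicate 1, squares replicate 2 and lines the means of 2 libraries. Bmp4, Grem1 and Bmpr2 separate clearly. For Id1, Id2, Id3, Smad6 and Grem1 the upper MGT+shNT point is replicate 2, at 34.1 CPM for Id1 and 141 CPM for Id3.

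Of the receptor genes, Bmpr2 fell and Bmpr1a did not pass. Bmpr2 (ENSMUSG00000067336, plus strand of chromosome 1, 59763400 to 59879014) had 332 and 289.6 CPM in the control libraries and 212 and 235 CPM in the knockdown libraries. Both knockdown libraries were below both control libraries. Its mean fell from 311 ± 29.9 to 224 ± 16.4 CPM, a log2 difference of -0.47 (SE 0.07, 95% interval -0.63 to -0.31, adjusted p = 0.000333). The call held with each library left out and was lost on both FPKM scales (adjusted p = 0.0628 and 0.0609).

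Bmpr1a (ENSMUSG00000021796, minus strand of chromosome 14, 34410734 to 34503341) had 315 and 300.4 CPM in the control libraries and 289 and 301 CPM in the knockdown libraries. The groups overlapped. The log2 fold change was -0.06 (SE 0.06, adjusted p = 0.492), with a 95% interval from -0.19 to 0.07 that is narrow beside the fall of Bmpr2, and its sign turned with the scaling (0.011 with library totals without Rn18s-rs5 and Lars2 and no TMM factors, 0.037 on both FPKM scales). The ratio of Bmpr2 to Bmpr1a in FPKM was 0.372 and 0.340 in the control libraries and 0.259 and 0.276 in the knockdown libraries, lower in both knockdown libraries.

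Smad6 and the Id genes stand at the end of the pathway. Smad6 (ENSMUSG00000036867, minus strand of chromosome 9, 63953076 to 64022059) had 103 and 116 CPM in the control libraries and 96.04 and 86.7 CPM in the knockdown libraries. It fell from 109 ± 9.001 to 91.4 ± 6.61 CPM, a log2 difference of -0.25 (SE 0.07, adjusted p = 0.0207). Id2 (ENSMUSG00000020644, minus strand of chromosome 12, 25093799 to 25097140) had 37.9 and 42.8 CPM against 34.1 and 30.0 CPM. Its mean fell from 40.4 ± 3.40 to 32.1 ± 2.92 CPM, a log2 difference of -0.33 (SE 0.09, adjusted p = 0.0195). For both genes the groups did not overlap, but the nearest libraries of the groups were closer to each other than the replicates of either group.

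Id3 (ENSMUSG00000007872, plus strand of chromosome 4, 136143497 to 136145755) had 106 and 141 CPM in the control libraries and 105 and 93.9 CPM in the knockdown libraries. MGT+shNT replicate 2 was high, while MGT+shNT replicate 1 lay next to MGT+shScd1 replicate 1. The mean fell from 124 ± 24.5 to 99.4 ± 7.77 CPM, a log2 difference of -0.31 (SE 0.10, adjusted p = 0.0412), and in FPKM, without TMM scaling, the groups overlapped. Without MGT+shNT replicate 2, the library rich in ribosomal RNA, none of these 3 calls held: the log2 fold changes were -0.10 for Id3 (adjusted p = 0.352), -0.24 for Id2 (adjusted p = 0.0532) and -0.17 for Smad6 (adjusted p = 0.0744). Without MGT+shScd1 replicate 2 all 3 calls were lost too (log2 fold changes -0.23, -0.24 and -0.18 in the same order). Without MGT+shScd1 replicate 1 those of Id3 (-0.39) and Smad6 (-0.33) were lost. Both of the latter values were more negative than with no library left out. DESeq2 gave adjusted p-values of 0.355 for Id3 and 0.0624 for Id2, and limma-voom 0.0535 for Id3. With library totals without Rn18s-rs5 and Lars2 and no TMM factors, Id3 (adjusted p = 0.104), Id2 (adjusted p = 0.057) and Smad6 (adjusted p = 0.0802) were lost, as they were on both FPKM scales. Without MGT+shNT replicate 1 the value for Id3 was -0.49. All 3 genes kept a negative sign in each of the 12 alternatives.

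Id1 (ENSMUSG00000042745, plus strand of chromosome 2, 152736251 to 152737410) had 25.4 and 34.1 CPM in the control libraries and 30.5 and 30.3 CPM in the knockdown libraries. The control libraries lay on either side of the knockdown pair, and its log2 fold change of 0.05 (SE 0.12, 95% interval -0.21 to 0.30) did not pass (adjusted p = 0.821). It was 0.26 without MGT+shNT replicate 2 (adjusted p = 0.0647) and -0.16 without MGT+shNT replicate 1 (adjusted p = 0.319), so the sign depended on which control library was kept. The 3 Id genes added up to 95.7 and 119 FPKM in the control libraries and 102 and 93.9 FPKM in the knockdown libraries, an overlap. Id1 made up 22.6% and 23.4% of that sum in the control libraries and 26.6% and 28.7% in the knockdown libraries, while Id3 made up 61.3% and 62.6% against 59.3% and 57.7%. Shares within a library do not depend on its scaling, and the Id1 and Id3 shares of the groups did not overlap although the sums did. The shares are parts of the same sum and so not independent. Groups without overlap were common, as the CPM of 64.3% of all tested genes showed. Id4, the remaining family member, had 4.94 and 5.31 CPM against 4.80 and 4.92 CPM and did not pass (log2 fold change -0.07, adjusted p = 0.826, with the sign changed on both FPKM scales).

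**Figure D3:**
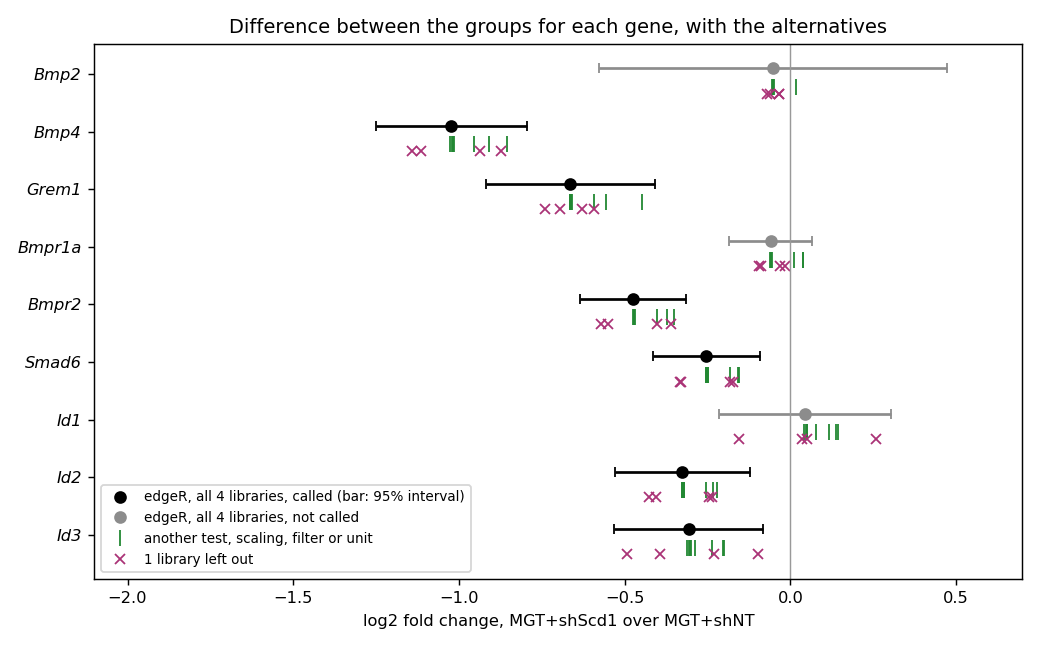
Log2 fold change (MGT+shScd1 over MGT+shNT) of the 9 genes by edgeR with its 95% interval (circles; black called, grey not called), with the value under each other test, scaling, filter or unit (green ticks) and with 1 library left out (crosses). All marks of Bmp4 (-1.14 to -0.85) and Grem1 (-0.74 to -0.45) lie well left of 0, those of Id3 spread from -0.49 to -0.10, and those of Id1 fall on both sides.

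Across the 4 libraries, the log2 CPM profiles of Id2, Id3 and Smad6, each centred on its own mean, lay near each other, though the closest pair of the 9 was Bmp2 and Bmpr1a, neither of them called (root mean square difference 0.0377). The difference was 0.0397 between Id2 and Smad6, 0.08 between Id2 and Id3 and 0.09 between Id3 and Smad6. Id1 was 0.22, 0.18 and 0.18 away from Id2, Id3 and Smad6, and Bmp4 0.37, 0.42 and 0.41 away from them. Outside the 9 genes, the tested genes nearest to Bmp4 by the same measure were Tmem45a (0.03), Pde8a (0.03) and Plcl2 (0.03), with log2 fold changes of -1.02, -0.98 and -0.99. These profiles rest on 4 libraries in 2 groups, so genes can lie near each other only if their log2 fold changes are alike. The values near that of Bmp4 thus follow from how its nearest genes were picked. How often other pairs of tested genes lie as near was not counted.

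Per length, the order of levels in the control libraries, as mean FPKM, was Id3 (66.5), Bmpr1a (46.9), Smad6 (32.9), Id1 (24.7), Bmp4 (18.9), Bmpr2 (16.7), Id2 (16.0), Grem1 (4.44) and Bmp2 (0.915). Bmpr2 overlapped with both Bmp4 and Id2, its neighbours in that order, and did not differ from either beyond their spread, while Bmp4 and Id2 did not overlap with each other, nor did the other neighbours. In the knockdown libraries, Bmp4 (9.97) came after Id2 (13.6) and Bmpr2 (12.9), which overlapped with each other but not with Bmp4. The other genes kept their places, with Id3 at 57.4, Bmpr1a at 48.1, Smad6 at 29.5, Id1 at 27.1, Grem1 at 2.99 and Bmp2 at 0.945 FPKM. These levels carry the authors' scaling to total counts. Over the 13388 genes with at least 1 FPKM in the higher group, the median log2 difference was 0.0715 with log2(FPKM + 1) and 0.0849 with log2(FPKM + 0.1).

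**Figure D4:**
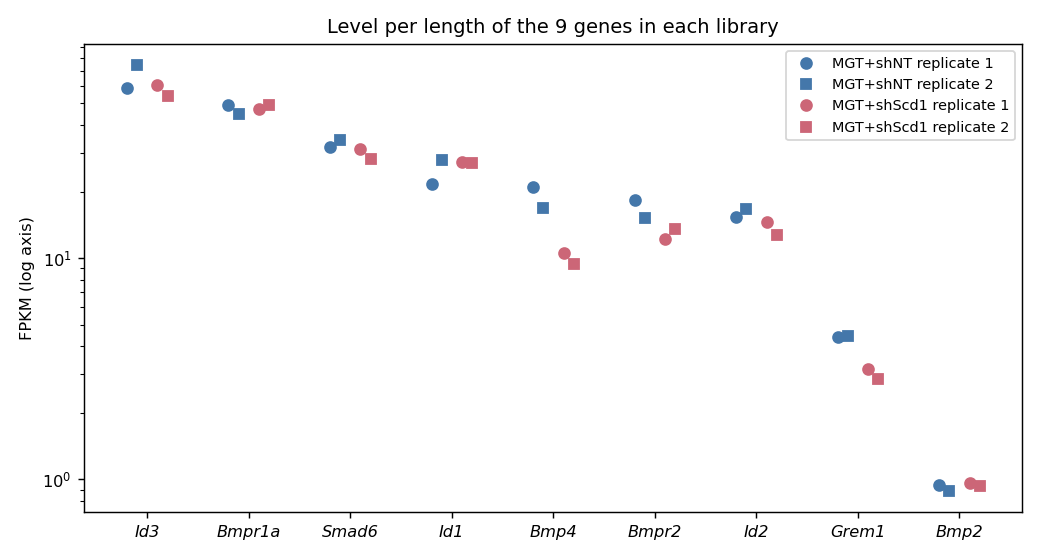
FPKM of the 9 genes in each library on a log axis, ordered by the MGT+shNT mean, blue for MGT+shNT and red for MGT+shScd1. Levels run from about 0.9 FPKM for Bmp2 to 74.4 FPKM for Id3 in MGT+shNT replicate 2, and the red points of Bmp4 (10.57 and 9.36) lie clearly below the blue ones (20.99 and 16.81).

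A wider list, written from general knowledge with earlier results of these data known, holds 65 BMP pathway genes. Of these, 52 passed the filter on low counts, 20 fell, 5 rose and 27 did not pass the test, a called share of 48.1% beside the 29.3% of all tested genes. The median log2 fold change was -0.14. On both FPKM scales 42 genes of the list were tested, of which 7 fell and 5 rose, beside a called share of all genes of 23.1% and 23.2%. Among the genes named below, Bmp8a, Rgma, Nog, Twsg1, Sost, Smad5, Runx2 and Tcf4 lost their calls there. The 13 genes below the filter had at most 10 counts in any library.

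Other ligands fell with Bmp4. Gdf6, a growth factor of the BMP family, had 550.2 and 576 CPM in the control libraries and 231 and 229.9 CPM in the knockdown libraries, a log2 difference of -1.29 (SE 0.06, adjusted p = 8.58e-09). Its replicates were nearly equal in each group. Of the ligands tested it was the one with the highest level per length, 154 FPKM in the control libraries and 67.5 in the knockdown libraries, and stood above Bmp4 by a factor of 6.40 to 9.18 in the 4 libraries. Bmp3, an atypical member that can oppose other BMPs, had 90.7 and 97.0 CPM against 29.6 and 28.7 CPM (log2 fold change -1.69, SE 0.07, adjusted p = 4.76e-09). Bmp6 went from 30.7 ± 0.0497 to 19.1 ± 1.81 CPM (log2 fold change -0.68) and Bmp8a from 2.53 ± 0.082 to 0.791 ± 0.24 CPM (-1.66), the latter call being lost without MGT+shScd1 replicate 2 (adjusted p = 0.083). Of the 11 further ligands listed, 5 were tested and these 4 fell, while Bmp8b did not pass. The called share was 80%, beside 29.3% of all tested genes.

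Of 10 further receptors and co-receptors, all tested, 5 fell and 5 did not pass, a called share of 50% beside 29.3% of all tested genes. The type I receptor gene Acvrl1 fell from 98.8 ± 9.36 to 63.2 ± 1.70 CPM (log2 fold change -0.65, adjusted p = 2.61e-05), and Acvr1, another type I receptor gene, from 84.6 ± 6.08 to 56.1 ± 1.44 CPM (-0.59, adjusted p = 4.31e-05). Tgfbr3, the co-receptor betaglycan, fell by 0.62 on the log2 scale and Rgma, a co-receptor for BMPs, by 0.47. The Rgma call was lost without MGT+shScd1 replicate 1, where the log2 fold change was -0.40.

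Extracellular modulators were mixed, with 6 lower, 4 higher and 4 not passing of 14 tested (17 listed). The called share was 71.4%, beside 29.3% of all tested genes. Follistatin (Fst), which binds activins and some BMPs, fell from 231 ± 19.8 to 149 ± 7.999 CPM (log2 fold change -0.63, adjusted p = 1.83e-05). Noggin (Nog), a BMP antagonist, had 24.1 and 26.8 CPM against 21.5 and 16.8 CPM (-0.40, adjusted p = 0.026), a call lost without MGT+shScd1 replicate 2 (adjusted p = 0.308), with DESeq2 (adjusted p = 0.0693) and with library totals without Rn18s-rs5 and Lars2 and no TMM factors (adjusted p = 0.0591). Twsg1 fell by 0.27, also lost without that library (adjusted p = 0.0521). Sost, best known as a Wnt antagonist, fell by 1.32 from low levels of 2.52 and 6.29 CPM, and lost its call without MGT+shNT replicate 2 (adjusted p = 0.246) or MGT+shScd1 replicate 1 (adjusted p = 0.344) and with limma-voom (adjusted p = 0.0687).

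Against these, the listed proteases of the tolloid family, which cleave the antagonist chordin, rose. Bmp1, which despite its name encodes such a protease, had 502 and 513 CPM in the control libraries and 693 and 721 CPM in the knockdown libraries (log2 fold change 0.48, SE 0.06, adjusted p = 5.05e-05). Its relative Tll1 rose from 3.20 ± 0.272 to 8.95 ± 0.497 CPM (1.47, adjusted p = 5.74e-05). The chordin gene Chrd was itself scarce, with 26 to 52 counts per library, and did not pass (log2 fold change 0.09, SE 0.32, adjusted p = 0.871). Cleavage of chordin was not measured. The antagonist gene Nbl1 rose from 26.0 ± 0.761 to 43.7 ± 2.47 CPM (0.75, adjusted p = 2.79e-05), and Bmper, a secreted BMP-binding protein, from 90.9 ± 8.19 to 118 ± 0.647 CPM (0.37, adjusted p = 0.00139).

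**Figure D5:**
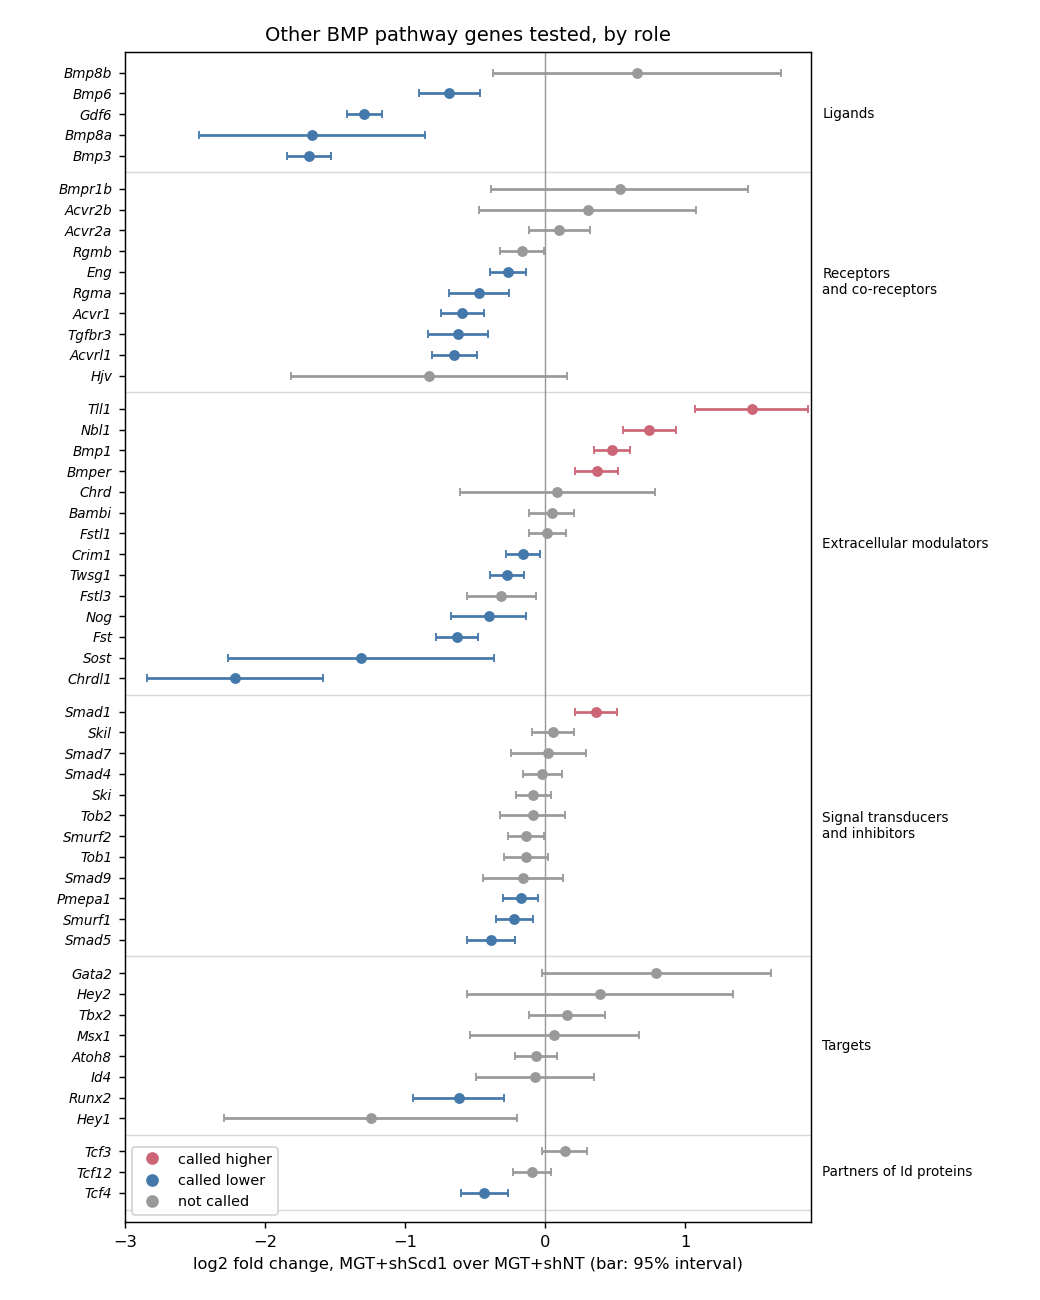
Log2 fold change (MGT+shScd1 over MGT+shNT) with 95% interval of the 52 tested genes of the wider list, by role, red where called higher, blue where called lower and grey where not called. The tested ligands lie mostly to the left (Gdf6 at -1.29, Bmp3 at -1.69), the modulators lie on both sides, and most targets are grey.

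Among the transducers, Smad1 rose and Smad5 fell, while Smad9, the remaining SMAD gene that BMP receptors act on, did not pass (log2 fold change -0.16, adjusted p = 0.419). Smad1 had 54.8 and 55.5 CPM in the control libraries and 69.3 and 72.7 CPM in the knockdown libraries (log2 fold change 0.36, SE 0.07, adjusted p = 0.00125). Smad5 had 80.9 and 69.4 CPM against 57.6 and 57.7 CPM (-0.39, SE 0.08, adjusted p = 0.00227). Its call was lost without MGT+shScd1 replicate 1, where the log2 fold change was also -0.39. The ratio of Smad5 to Smad1 in FPKM went from 1.24 and 1.05 to 0.702 and 0.670, so Smad5 was the more abundant per length in both control libraries and Smad1 in both knockdown libraries. Smad4, the shared partner, had 76.1 and 76.0 CPM against 76.6 and 73.5 CPM (-0.02, adjusted p = 0.861), and its sign changed with the scaling (0.0512 with library totals without Rn18s-rs5 and Lars2 and no TMM factors). Of 12 transducers and inhibitors, 1 rose, 3 fell and 8 did not pass, a called share of 33.3%, near the 29.3% of all tested genes.

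Further targets mostly did not pass the test: 12.5% of those tested were called, beside 29.3% of all genes tested. Hey1, Hey2, Msx1 and Gata2 had 8 to 63 counts per library and SEs of 0.28 to 0.48, so a moderate change in them could have been missed. Of 8 tested, 1 was called, the osteoblast regulator Runx2, which fell by 0.62 from 11.01 ± 1.13 to 7.14 ± 0.449 CPM (adjusted p = 0.00771). It lost its call without MGT+shScd1 replicate 1, where the log2 fold change was -0.56. Of the E proteins that Id proteins bind, Tcf4 fell from 137 ± 10.2 to 102 ± 10.3 CPM (log2 fold change -0.43, adjusted p = 0.000894), while Tcf3 and Tcf12 did not pass.

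Few reads were counted for genes that overlap exons of the 9. Bmp4 shares exon bases with the opposite-strand gene Gm15217, which had 0 to 5 counts per library, and Bmpr1a with Gm17110, which had 2 to 9, beside 393 to 986 counts of Bmp4 and 4300 to 6506 of Bmpr1a. Whether the counting used strand is not given in these sources, and any reads left out of both genes' counts would not show here.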

How the data were processed

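Gene counts were used as the authors deposited them: whole numbers for each library, without scaling. Beside them the authors deposited FPKM, which equalled count over exonic length and library total for 100% of values within 0.005. Subread 1.5.1, featureCounts, Trimmomatic 0.36 and SAMtools appear in the submitters' processing notes, with the build mm10. The sources used here do not give the annotation release, the strand setting or the handling of multi-mapping reads. Per the labels' protocols, RNA was extracted with TRIzol, depleted of ribosomal RNA and sequenced as stranded read pairs, though the molecule is labelled polyA RNA.

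Groups were compared by the quasi-likelihood test of edgeR 4.0.16 in R 4.3.3, two-sided, with TMM factors (0.946 to 1.04) and group as the single term, on 16234 genes kept by filterByExpr (minimum count 10, minimum total 15), with Benjamini-Hochberg adjustment over all of them. CPM scale counts to the TMM-adjusted library size, means are ± SD of 2 libraries, and SE and 95% intervals are of the log2 fold change. Alternatives used DESeq2 1.42.0, limma 3.58.1, other scalings, no filter, log2(FPKM + 1) and log2(FPKM + 0.1) for genes with at least 1 FPKM in the higher group, the replicate number as a block, and each library left out. The code was tested on simulated data. Of the wider list, the text names called genes with at least 1 FPKM in the higher group, up to 20 by size of change, and 5 set pathway genes, and nearest genes by root mean square difference, 3 in number. Smad9, Bmp8b, Tcf3, Tcf12, Chrd, Hey1, Hey2, Msx1 and Gata2 lie outside that rule and were named after their values were seen. The 9 genes and all lists were chosen with earlier results of these data known.

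Replicate libraries differed beyond counting noise (chi-square over its degrees of freedom was 49.3 for the MGT+shNT pair, or 6.45 after dropping the 10 genes that added most, and 2.97 for the MGT+shScd1 pair), so all 4 were kept. Nothing says that they came from separate cultures or animals, so p-values measure the spread between these libraries, which may be technical. The start in the deposited coordinates equalled that of GENCODE M21 (GRCm38) for 2.78% of 52034 genes compared, so gene positions are from GENCODE M21 and promoter windows from RefSeq.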

Additional observations from a re-analysis of the deposited data

How the results depend on the processing

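Bmp4 and Grem1 kept their direction and call in all 12 alternatives, and Bmpr2 in all but log2(FPKM + 1) (-0.35) and log2(FPKM + 0.1) (-0.37). The called genes numbered 3097 and 3111 on these scales (4763 in the edgeR test with TMM), or 23.1% and 23.2% of the genes tested. The called members were 2 and 2 of 8 tested, a share near that of all genes, since Bmp2 was below the minimum. The wider list's calls were 12 and 12. The members lost on both scales besides Bmpr2 were Id2 (-0.22 and -0.23), Id3 (-0.20 and -0.20) and Smad6 (-0.16 and -0.16), and Bmpr1a changed sign (0.0368 and 0.0375), as did Smad4 (0.0733 and 0.0765) and Id4 (0.0126 and 0.0207), all 3 not called. With library totals without Rn18s-rs5 and Lars2 and no TMM factors, 3 of 9 members were called, a share near the 30.4% of all genes tested. Id2 (-0.26), Id3 (-0.24) and Smad6 (-0.18) were lost with these totals, and Bmp2 (0.0168), Bmpr1a (0.0106) and Smad4 (0.0512) changed sign without a call. Of all calls 44.6% were higher in the edgeR test with TMM, 58.6% with those totals and 63.3% and 63.0% on the FPKM scales. The median of the genes tested was 0.07 with those totals and 0.0715 and 0.0849 on the FPKM scales, instead of 9.44e-05. DESeq2 lost Id2 (-0.33) and Id3 (-0.31), and limma-voom Id3 (-0.29). The cause of these losses was not tested. With each library left out, the genes called ranged from 2217 to 5331, the called members from 3 to 6, Id1 from -0.16 to 0.26, Id2 from -0.43 to -0.24, Id3 from -0.49 to -0.10, Smad6 from -0.33 to -0.17 and Smad4 from -0.0522 to 0.0119; a lone library was taken to vary like the other group's pair. Same-numbered libraries did not deviate together (correlation 0.00769 across genes). This gave no sign that the numbers pair them, but with 2 libraries in each group it cannot exclude pairing. With the replicate block 4990 genes were called (30.7% of those tested), among them 6 members. At 48 to 70 counts, Bmp2 was too thinly covered to show a small change.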
